A study of Mus musculus with 18 samples.

Results

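The imprinted Dlk1-Dio3 region of mouse chromosome 12 carries a large cluster of microRNAs (miRNAs), which was followed here through monocrotaline injury of the liver. Its members were taken by number: every mouse probe of either arm and any letter suffix that bears 1 of 42 miRNA numbers assigned to the cluster. All 42 numbers were found on the miRNA array. They gave 90 probes of 1122 mouse probes, for both arms of 44 hairpins, and 2 of the 90 probes each name 2 miRNAs (miR-299a and miR-299b).

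Livers came from male C57BL/6 mice of 6 weeks that were fasted for 12 h, given 1 intragastric dose and killed 48 h later, with 8 mice assigned to each group. The groups were MCT 270 (270 mg/kg monocrotaline), MCT 330 (330 mg/kg monocrotaline) and control (saline). Monocrotaline is a plant pyrrolizidine alkaloid that the liver converts to a reactive pyrrole and that injures the sinusoidal endothelium. For 3 mice per group, total liver RNA was run on 9 one-colour miRNA arrays and on 9 one-colour mRNA arrays, so each array reads bulk tissue, in which fewer cells of a type and less RNA per cell cannot be told apart.

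Imprinted genes are expressed from the chromosome of 1 parent only. In the Dlk1-Dio3 region the protein-coding genes Dlk1, Rtl1 and Dio3 are read from the paternal chromosome, and the long noncoding RNAs Meg3, Rian and Mirg, with the miRNAs, from the maternal one. The miRNAs are thought to be cut from long shared transcripts. A miRNA hairpin yields a 5p and a 3p strand, and the strand loaded into Argonaute pairs with target mRNAs mainly through its seed, bases 2 to 8. In mice, loss of the distal group of these miRNAs is known to disturb liver glucose production around birth, and the miRNAs opposite Rtl1, among them miR-127, are known to direct cleavage of the Rtl1 mRNA. The cluster is active in embryo, placenta and brain and is largely silent in adult liver.

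By RefSeq positions on GRCm38.p6, the 44 hairpins lie on chromosome 12 between 109580233 and 109743795, a span of 163.6 kb. The proximal group of 9 hairpins, from Mir493 to Mir136 (109580233 to 109595388), lies within the span of Rtl1 and on the opposite strand. The middle group, Mir341 and Mir370, lies within Rian (109611500 to 109618336). The distal group of 33 hairpins, from Mir379 to Mir410 (109709060 to 109743795), ends within Mirg, whose span holds 8 of them.

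RefSeq (GRCm38.p6) gave a mature sequence for 86 of the 90 probes. The sequences below belong to members whose signal differed between groups by the test used here, with the seed in capitals. miR-487b-3p and miR-539-3p also passed that test.
miR-493-5p: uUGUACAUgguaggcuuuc
miR-434-3p: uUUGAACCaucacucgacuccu
miR-299a-5p: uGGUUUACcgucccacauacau
miR-323-3p: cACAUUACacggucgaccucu
miR-329-5p: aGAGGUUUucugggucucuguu
miR-495-5p: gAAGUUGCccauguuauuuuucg
miR-376b-3p: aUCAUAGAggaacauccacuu
miR-544-5p: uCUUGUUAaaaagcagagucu
miR-382-5p: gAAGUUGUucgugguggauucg
miR-382-3p: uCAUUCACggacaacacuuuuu
miR-668-5p: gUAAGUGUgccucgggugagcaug
miR-668-3p: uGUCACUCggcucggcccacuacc

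The 31 tested members with a sequence had 31 different seeds. miR-495-5p and miR-382-5p share bases 2 to 7 (AAGUUG) and differ at base 8, and both are among the members that were higher in MCT 270 livers below. miR-329-5p shares bases 2 to 7 (GAGGUU) with miR-377-5p, which was not tested.

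Most of the cluster was dim in these livers. A signal of 30 over background was reached by 27 to 36 of the 90 members per array (30.0% to 40.0%), against 435 to 510 of the 1122 mouse probes (38.8% to 45.5%). Of the 90 members, 42 stayed under 30 on all 9 arrays and 20 reached it on all 9. A probe was tested when it reached 30 on all arrays of at least 1 group, which left 33 members from 27 hairpins and 490 mouse probes in all. The 57 members not tested had signals from -10.5 to 330, with a median of 5. Of the 33 tested, 5 passed that minimum in MCT 270 livers alone (miR-323-3p, miR-329-5p, miR-381-5p, miR-382-5p and miR-487b-5p) and 6 in control livers alone (miR-127-3p, miR-370-3p, miR-380-5p, miR-410-5p, miR-539-3p and miR-668-5p). These 11 had to differ to some degree between groups, and their tests and counts support nothing beyond the values themselves. The same minimum was passed by 14 of the 56 probes for viral miRNAs on this array, so a signal above it is not by itself a measure of its miRNA. The liver miRNA miR-122-5p was bright on every array, at 6740.5, 6967 and 4438.5 in MCT 270 livers, 4463.5, 8415 and 12523 in MCT 330 livers and 9094.5, 8602 and 7308.5 in control livers.

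Signals are given below as the deposited foreground minus background intensity for replicates 1, 2 and 3. Fold changes and tests use background-corrected and quantile-normalized log2 values in limma, and a member is called at a Benjamini-Hochberg adjusted p under 0.05 over the 490 probes. The 50 units added before the log2 step shrink the fold changes of dim probes. The number of arrays limits the precision.

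After 270 mg/kg the cluster did not move in 1 direction. Of 33 tested members, 6 were higher and 5 lower than in controls, 33.3% in all, against 26.7% of the 490 probes. Of these 11 calls 5 were of members that passed the minimum in 1 group alone. Over the members at 30 on all 9 arrays, 2 were higher and 3 lower of 20, beside 86 calls over 357 probes, so the share of members called was close to that of all probes. The higher share was 18.2% of members and 15.9% of all probes, and the lower share 15.2% and 10.8%. The median log2 fold change was -0.30 over the members and -0.05 over all probes. By position, the calls were 1 lower of 8 proximal members, 0 of 2 middle members, and 6 higher and 4 lower of 23 distal members.

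miR-493-5p, the first hairpin of the proximal group, had the largest called change among the members. Its signal was 1057, 2721.5 and 1896.5 in MCT 270 livers, against 18775, 10568.5 and 5721 in control livers. The groups did not overlap, and the highest control exceeded the lowest by more than 3 times. On the log2 scale it averaged 10.89 ± 0.51 in MCT 270 livers and 13.49 ± 0.85 in control livers (SD, n = 3 each), a log2 fold change of -2.60 ± 0.44 (SE; limma adjusted p = 0.0056).

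miR-487b-3p of the distal group had signals of 2119.5, 3505 and 2396.5 in MCT 270 livers, against 8144, 7202.5 and 6026 in control livers. Its log2 fold change was -1.46 ± 0.36 (limma adjusted p = 0.0205). miR-376b-3p, known in human cells to lower the autophagy proteins Atg4c and Beclin 1, had 150, 59 and 114 in MCT 270 livers, against 573.5, 407.5 and 268 in control livers. Every MCT 270 array lay below every control array for both. The log2 fold change of miR-376b-3p was -1.50 ± 0.39 (limma adjusted p = 0.0228).

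The remaining lower members faded to near background. miR-668-5p had 18.5, 15 and 5.5 in MCT 270 livers, against 123, 74.5 and 96.5 in control livers, so it reached 30 on no MCT 270 array and was at least 1.55-fold lower (limma adjusted p = 0.0255). miR-539-3p had 18, 12 and 8.5 in MCT 270 livers, against 201, 79.5 and 47 in control livers, and was at least 1.58-fold lower (limma adjusted p = 0.0406). miR-127-3p, the best known of the miRNAs opposite Rtl1, had 6, 24 and 20.5 in MCT 270 livers, where no array reached 30, while all 3 control arrays did, and was at least 1.35-fold lower without passing the threshold (limma adjusted p = 0.0859). Each bound sets the mean of the brighter group against the weakest mouse probe at 30 on each array, or the dim probe's own value where that was higher.

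All 6 higher members came from the distal group. miR-329-5p had 248, 109.5 and 99 in MCT 270 livers, against 18.5, 36 and 35 in control livers, with a log2 fold change of 1.28 ± 0.26 (limma adjusted p = 0.0117). miR-382-5p, known in human kidney cells to lower the mitochondrial enzyme Sod2, had 94, 126.5 and 121 in MCT 270 livers, against 23, 38 and 47.5 in control livers, with a log2 fold change of 0.96 ± 0.17 (limma adjusted p = 0.00727). The MCT 270 arrays of both lay above all 3 controls, which sat close to the detection minimum, and both were tested only because all 3 MCT 270 arrays passed it. miR-544-5p had 731, 470 and 450 in MCT 270 livers, against 129, 292 and 327 in control livers (log2 fold change 1.01 ± 0.29, limma adjusted p = 0.0290).

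miR-495-5p had 218, 82 and 111.5 in MCT 270 livers, against 34, 36.5 and 87.5 in control livers (log2 fold change 0.91 ± 0.28, limma adjusted p = 0.0387). The lowest MCT 270 signal lay below the highest control signal, although the normalized values did not overlap. miR-668-3p had 583, 361 and 411.5 in MCT 270 livers, against 324.5, 180 and 176.5 in control livers (log2 fold change 0.81 ± 0.26, limma adjusted p = 0.0453). miR-323-3p had 113, 42.5 and 41 in MCT 270 livers, against 3, 6.5 and 10 in control livers, where no array reached 30, and was at least 1.45-fold higher (limma adjusted p = 0.0255). Over all 33 members the MCT 270 and control arrays did not overlap for 10 that were higher and 12 that were lower, against 26.5% and 22.9% of all probes. Of the 33, 5 passed the minimum in MCT 270 livers alone and 6 in control livers alone.

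**Figure D1:**
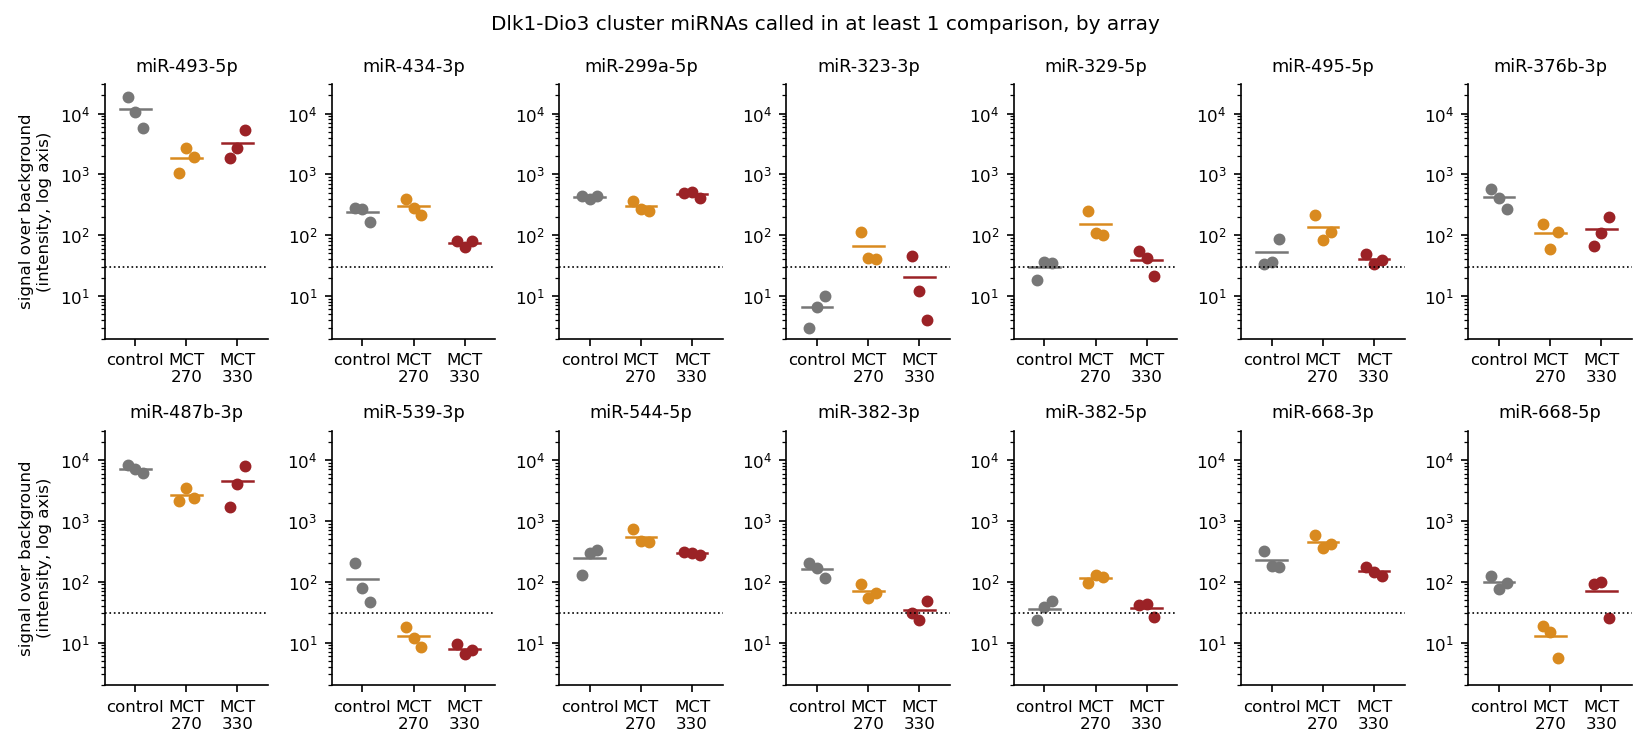
Signal over background (deposited intensity, log axis) of the 14 members called in at least 1 comparison; each point is 1 of 3 arrays per group, the bar is the group mean and the dotted line is the detection minimum of 30. miR-493-5p sits between 1057 and 2721.5 in MCT 270 livers and between 5721 and 18775 in control livers, while miR-382-5p sits between 94 and 126.5 in MCT 270 livers and between 23 and 47.5 in control livers.

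These calls were sensitive to single arrays and to which arrays count as separate mice. The 11 calls numbered 3 without control replicate 1, 3 without control replicate 2, 7 without MCT 270 replicate 2 and 4 without MCT 270 replicate 3. miR-493-5p and miR-382-5p were called in all 9 fits that leave out 1 array, and miR-329-5p in 8 of 9, missing without control replicate 1 (limma adjusted p = 0.0543). The other 8 called members were called in 1 to 7 of those fits. The filter was set over all 9 arrays and kept in each fit. Because miR-382-5p and miR-329-5p passed it only through MCT 270, their repeated calls support nothing beyond the values. The same limit holds for miR-323-3p, and for miR-539-3p and miR-668-5p, which passed it only through control. On the mRNA arrays of the same mice, replicates 2 and 3 of the control and MCT 270 groups, and all 3 replicates of MCT 330, differed by less than repeated spots on 1 array. The miRNA spots were deposited already combined, so the same comparison could not be made there. Between miRNA arrays, the SD of log2 differences was 0.29 for MCT 270 replicates 2 and 3, against 0.75 and 0.71 for the pairs with replicate 1. Control pairs ran from 0.40 to 0.57 and MCT 330 pairs from 0.51 to 0.84. Whether any of these arrays repeat a sample was not tested. With miRNA replicates 2 and 3 of each group averaged, 1 of the 11 members was called, miR-493-5p, and with the arrays averaged into 5 samples as on the mRNA arrays, none was (lowest limma adjusted p among members 0.129, with 11 at an unadjusted p under 0.05). The 131 calls over all probes were 0 in that fit too, with 144 at an unadjusted p under 0.05.

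Scaling moved the balance of directions. With the authors' normalized ratio, 5 members were higher and 13 lower, and the median of all probes fell by 0.28 on the log2 scale. Over all probes that ratio gave 56 higher and 85 lower, against 78 and 53 above. With median scaling, 3 members were higher and 9 lower, and the median of all probes fell by 0.20. Relative to those medians the members' medians of -0.61 and -0.53 lay further down, as the values above did. These medians cover the 33 tested members, of which 6 passed the minimum in control livers alone and 5 in MCT 270 livers alone. Over the 20 members at 30 on all 9 arrays the median was -0.14, beside 0.001 over 357 probes. With no filter it was 0.008 over 90 members and 0.006 over 1122 probes. No called member changed sign under any alternative, and 10 of the 11 were called with the authors' ratio and 8 with median scaling.

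**Figure D2:**
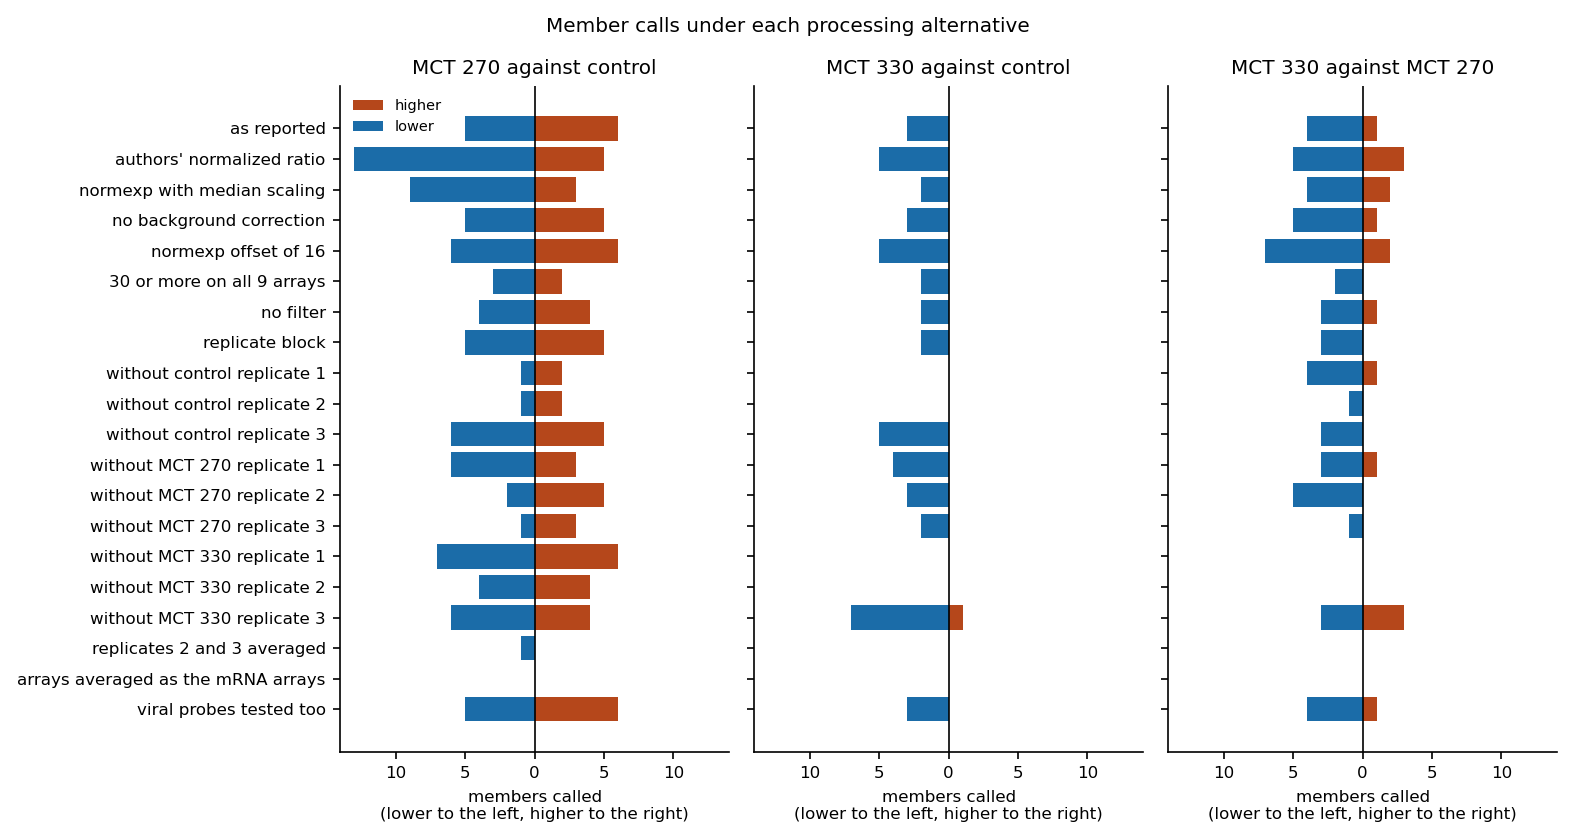
Number of members called lower (bars to the left of 0) and higher (bars to the right) in the 3 comparisons, as reported and under the other ways of processing. For MCT 270 against control the calls are 6 higher and 5 lower as reported, 5 higher and 13 lower with the authors' normalized ratio, and 0 when the arrays are averaged into 5 samples.

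After 330 mg/kg, 0 members were higher and 3 lower than in controls, 9.09% of 33 against 5.31% of the 490 probes. The lower share over all probes was 5.10% and the higher share 0.204%. The median log2 fold change was -0.10 over the members and 0.05 over all probes. For 13 members every MCT 330 array lay below every control array (39.4%, against 17.3% of all probes), and for 0 members above (against 9.39%). Of the 33, 6 passed the minimum in control livers alone and 0 in MCT 330 livers alone. That filter can tilt these counts towards lower, so they support nothing beyond the values. Over the members at 30 on all 9 arrays, 0 were higher and 2 lower of 20, beside 13 calls over 357 probes.

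miR-493-5p was lower at this dose too, at 1855, 2722.5 and 5432.5 in MCT 330 livers, against the 18775, 10568.5 and 5721 of control livers (log2 fold change -1.94 ± 0.44, limma adjusted p = 0.0337). It was not called at this dose with the authors' ratio, with median scaling or with no filter on dim probes. The gap between the nearest arrays was small, 5432.5 in MCT 330 against 5721 in control. miR-434-3p, 1 of the miRNAs opposite Rtl1, had 80, 64 and 79.5 in MCT 330 livers, against 281, 265.5 and 165 in control livers, with a log2 fold change of -1.16 ± 0.23 (limma adjusted p = 0.0169). miR-382-3p had 30.5, 23.5 and 49 in MCT 330 livers, against 201, 166.5 and 116 in control livers, with a log2 fold change of -1.17 ± 0.23 (limma adjusted p = 0.0169). For all 3 the groups did not overlap.

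Just short of the threshold were miR-539-3p and miR-376b-3p. miR-539-3p had 9.5, 6.5 and 7.5 in MCT 330 livers, against 201, 79.5 and 47 in control livers, at least 1.69-fold lower (limma adjusted p = 0.0517). miR-376b-3p had 66, 107 and 202 in MCT 330 livers, against 573.5, 407.5 and 268 in control livers, with a log2 fold change of -1.39 ± 0.39 (limma adjusted p = 0.0679).

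The 3 calls after 330 mg/kg were all lost without MCT 330 replicate 1, without MCT 330 replicate 2, without control replicate 1 or without control replicate 2. Without MCT 330 replicate 3 there were 8 calls, and without control replicate 3 there were 5. With replicates 2 and 3 averaged there were 0, with 10 of 33 members at an unadjusted p under 0.05 by limma, and with 5 samples 0, with 6. Blood cell markers were also read at this dose. The summed signal of the 6 erythroid probes ran from 18006 to 51221.5 in MCT 330 livers and from 6916 to 11704 in control livers, and all 4 tested had a log2 fold change above 0, with 0 of 4 called by limma and 4 at an unadjusted p under 0.05. The summed signal of the 10 haematopoietic and myeloid probes ran from 6971 to 16717.5 in MCT 330 livers and from 5094.5 to 6702 in control livers, with 5 of 6 tested above 0, 0 called and 3 at an unadjusted p under 0.05. In that list miR-146a-5p had a log2 fold change of -0.78 (limma adjusted p = 0.428). Their part in the members' values was not tested.

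**Figure D3:**
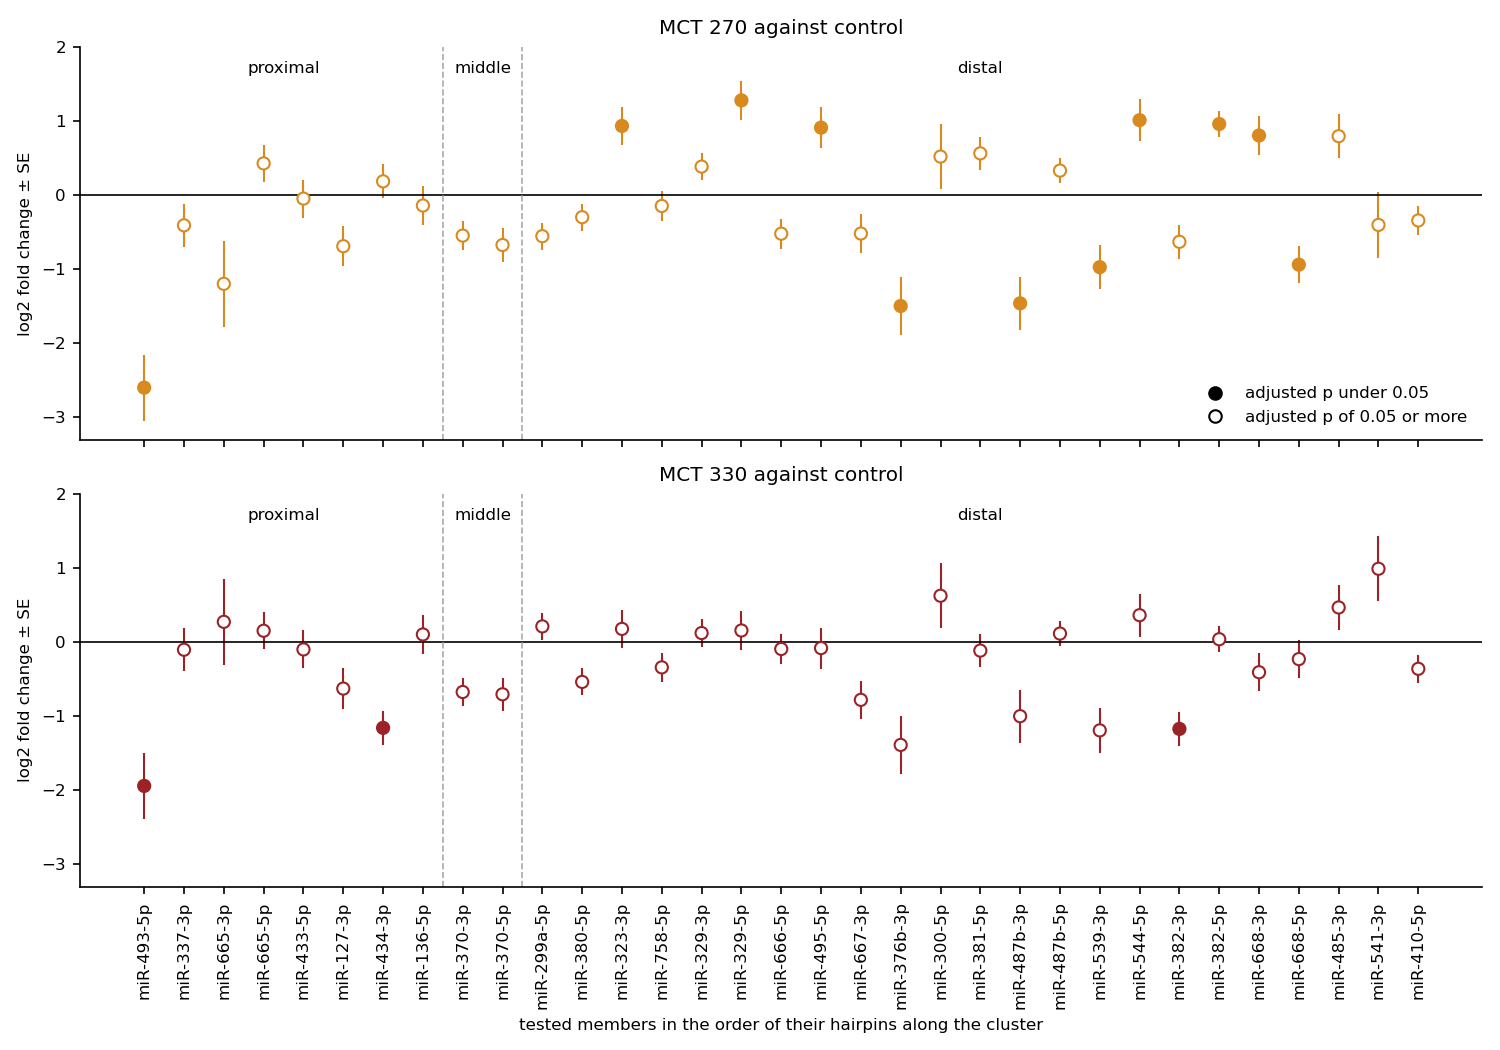
Log2 fold change with its standard error for the 33 tested members, in the order of their hairpins along the cluster, for MCT 270 against control (top) and MCT 330 against control (bottom); filled points passed the adjusted p threshold of 0.05 and dashed lines part the proximal, middle and distal groups. Filled points lie on both sides of 0 in the distal group after 270 mg/kg, and the 3 filled points after 330 mg/kg all lie below 0. The points of miR-127-3p, miR-323-3p, miR-370-3p, miR-539-3p and miR-668-5p after 270 mg/kg, and of miR-323-3p, miR-370-3p and miR-539-3p after 330 mg/kg, are fitted against a group at background and give no size.

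The doses differed directly for 5 members. Of 33, 1 was higher and 4 lower in MCT 330 than in MCT 270 livers, 15.2% against 6.12% of all probes (1.22% higher and 4.90% lower). The MCT 330 and MCT 270 arrays did not overlap for 4 that were higher and 11 that were lower, against 11% and 26.1% of all probes. Of the 33, 5 passed the minimum in MCT 270 livers alone and 0 in MCT 330 livers alone, which can tilt these counts towards lower. miR-434-3p had 80, 64 and 79.5 in MCT 330 livers, against 392.5, 282 and 217.5 in MCT 270 livers (log2 fold change -1.34 ± 0.23, limma adjusted p = 0.0187). With probes at 30 on all 9 arrays, 2 of 20 members were called, miR-434-3p and miR-668-3p, beside 16 of 357 probes. Of the members higher after 270 mg/kg, 3 were lower at the larger dose, of which miR-382-5p and miR-329-5p were tested only through the MCT 270 arrays. miR-382-5p had 41, 43.5 and 26.5 in MCT 330 livers, against 94, 126.5 and 121 in MCT 270 livers (log2 fold change -0.92 ± 0.17, limma adjusted p = 0.0252).

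miR-329-5p had 54.5, 42.5 and 21.5 in MCT 330 livers, against 248, 109.5 and 99 in MCT 270 livers (log2 fold change -1.12 ± 0.26, limma adjusted p = 0.0420). miR-668-3p had 176.5, 145 and 123 in MCT 330 livers, against 583, 361 and 411.5 in MCT 270 livers (log2 fold change -1.21 ± 0.26, limma adjusted p = 0.0313). The MCT 330 signals of miR-382-5p and miR-329-5p overlapped those of the controls. miR-299a-5p was the only member called higher in MCT 330 livers, at 500.5, 504.5 and 415.5, against 371.5, 272.5 and 246.5 in MCT 270 livers (log2 fold change 0.77 ± 0.18, limma adjusted p = 0.0429). A second probe, named for miR-299a-5p and miR-299b-5p, did not pass the minimum in any group and was not tested. The miR-299a-5p call therefore rests on 1 of its probes. All 5 calls were lost without MCT 330 replicate 1 or 2. There was 1 without control replicate 2 or without MCT 270 replicate 3, and 3 without control replicate 3. With the authors' ratio 3 members were higher and 5 lower, beside 39 higher and 31 lower of all probes, where quantile normalization gave 6 and 24. miR-299a-5p was not called with the authors' ratio or with median scaling. Replicates 2 and 3 averaged, or 5 samples, gave 0 calls by limma, with 9 and 4 members at an unadjusted p under 0.05.

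For a few members the 3 MCT 330 arrays lay far apart. miR-665-3p had 660.5, 266.5 and 99 in MCT 330 livers, against 38, 81 and 60 in MCT 270 livers and 80.5, 270.5 and 483 in control livers, and it was called in none of the comparisons as reported, though with the authors' ratio it was called lower in MCT 270 than in control livers and higher in MCT 330 than in MCT 270 livers. miR-541-3p had 351, 341.5 and 66 in MCT 330 livers, against 91, 68.5 and 106.5 in control livers (log2 fold change 0.99 ± 0.44, limma adjusted p = 0.219), and was called against control only without MCT 330 replicate 3. Among members not tested, the highest signal of 330 was that of miR-341-3p on MCT 330 replicate 1, against 45 and 25 on the other MCT 330 arrays.

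Both arms of 6 hairpins were tested, and their values often differed. After 270 mg/kg the arms of miR-668 were called in opposite directions, with miR-668-3p higher (log2 fold change 0.81 ± 0.26) and miR-668-5p, at background on all 3 MCT 270 arrays, at least 1.55-fold lower. The miR-668-3p call held in 1 of the 9 fits that leave out 1 array. It was lost with the authors' ratio, with median scaling and with no background correction. miR-668-5p was tested only through control livers, so its call supports nothing beyond the values. For miR-382 the 5p arm was called higher (log2 fold change 0.96 ± 0.17) and the 3p arm had a log2 fold change of -0.63 ± 0.23 (limma adjusted p = 0.0715). For miR-487b the 3p arm was called lower (-1.46 ± 0.36), and the 5p arm, with signals of 30, 43 and 46 in MCT 270 livers against 17, 27.5 and 36 in control livers, had 0.33 ± 0.17 (limma adjusted p = 0.157).

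Within each array, the log2 difference between the 5p and 3p arm of miR-382 shifted by 1.59 in MCT 270 relative to control livers. The shift was 1.79 for miR-487b, 1.63 for miR-665 and 0.89 for miR-329. For each of these 4 hairpins the 3 MCT 270 arrays and the 3 control arrays did not overlap, which gives an exact two-sided permutation p of 0.1, the smallest that 3 against 3 allows. The 5p arms of miR-382, miR-487b and miR-329 were tested only through MCT 270 and lay near 30 in control livers. The shifts and p of these hairpins therefore support nothing beyond the values. No shift is given where an arm was under 30 on all arrays of a group, as miR-668-5p was in MCT 270 livers and miR-370-3p in MCT 270 and MCT 330 livers. The 5p arm of miR-370 had a log2 fold change of -0.67 ± 0.23 (limma adjusted p = 0.0519) and the 3p arm was at least 1.08-fold lower (limma adjusted p = 0.0632), and miR-370 is known in human hepatoma cells to lower the fatty acid oxidation enzyme Cpt1a.

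After 330 mg/kg the shift of miR-668 relative to control livers was 0.18 (exact permutation p = 0.5). For miR-382 the shift relative to control livers was 1.21 and for miR-487b 1.12 (exact permutation p = 0.1 for each). Across arrays, over the 528 pairs of tested members the median Pearson correlation across the 9 arrays was 0.03, with 253 pairs below 0, and over the 119805 pairs of all tested mouse probes it was -0.02. These are descriptions: the arrays share 3 groups and the pairs share arrays.

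**Figure D4:**
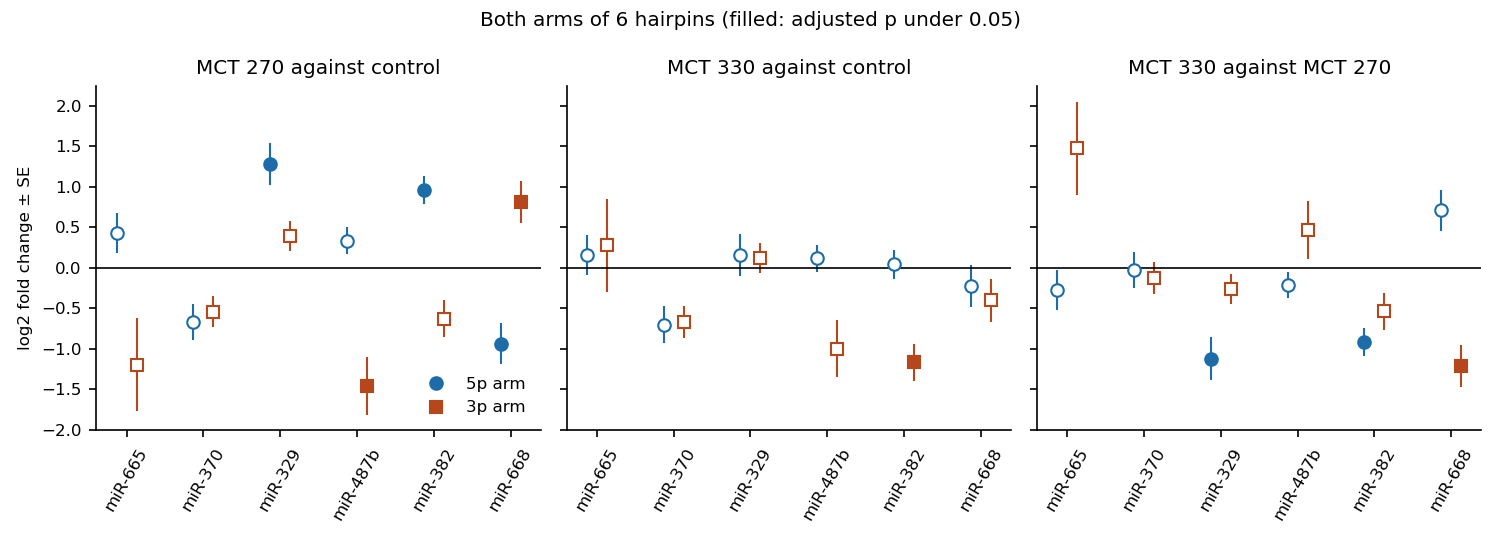
Log2 fold change with its standard error of the 5p arm (circles) and the 3p arm (squares) of the 6 hairpins with both arms tested, in the 3 comparisons; filled symbols passed the adjusted p threshold of 0.05. In MCT 270 against control the arms of miR-382 lie at 0.96 (5p) and -0.63 (3p); the points of miR-668-5p in both comparisons with MCT 270, and of miR-370-3p in all 3, are fitted values of a probe at background in at least 1 group and give no size.

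Outside the member list, the array held 27 probes for other RefSeq miRNAs between Dlk1 and Dio3, of which 7 were tested. miR-654-3p had 183, 158 and 101 in MCT 270 livers, against 50.5, 68 and 58.5 in control livers (log2 fold change 0.89 ± 0.20, limma adjusted p = 0.0168). miR-770-5p had 66.5, 81.5 and 95 in MCT 270 livers, against 28.5, 27 and 25 in control livers (limma adjusted p = 0.0180). No control array of miR-770-5p reached the detection minimum, and it was tested only through MCT 270. Its call therefore supports nothing beyond these values, and no size is given. None of the 7 was called after 330 mg/kg against control, where 1 had an unadjusted p under 0.05 by limma. miR-882 had 4626.5, 499 and 151 in MCT 330 livers, against 122, 132.5 and 174 in control livers, with 1 array far above the others (log2 fold change 2.28 ± 0.97, limma adjusted p = 0.198). These 3 were picked after their values were seen.

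The Sfmbt2 cluster, another imprinted miRNA cluster, read from a single host gene, was on the same arrays. Of the 49 tested probes, 29 were higher and 0 lower in MCT 270 than in control livers, with a median log2 fold change of 0.78. Over all tested mouse probes 15.9% were higher and 10.8% lower. For the 33 Dlk1-Dio3 members 6 were higher and 5 lower, with a median of -0.30. miR-467h and miR-669i, both called higher, and miR-467e-5p were tested only through MCT 270. Their tests support nothing beyond the values. miR-669e-5p, which had the smallest p of the 49, had 204, 211.5 and 193 in MCT 270 livers, against 64, 84 and 101.5 in control livers. After 330 mg/kg 0 of the 49 were called against control, with 4 at an unadjusted p under 0.05 by limma. Mature sequences of the Sfmbt2 cluster are closely alike, so these probes are not independent measurements.

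By the likeness of their 9 log2 values to the mean of the 33 tested members, the nearest probes outside the cluster were miR-683 (Pearson r = 0.94), miR-3060-5p (0.93), miR-138-1-3p (0.90), miR-3473d (0.88) and miR-1298-5p (0.88), over 9 arrays. They were picked as the highest values among all tested probes outside the members, so the selection favours a high r. The mean is not a shared profile, as the median correlation between pairs of members was 0.03.

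On the mRNA arrays 5 of the 6 named transcripts of the locus were read. Their values are log2 signal relative to the 75th percentile of each array, and the 9 arrays counted as 5 samples, 2 for MCT 270 (replicate 1, and the mean of replicates 2 and 3), 1 for MCT 330 and 2 for control. The spread of the lone MCT 330 sample was taken to equal that of the other 2 groups. MCT 330 arrays were scanned apart from the rest, so scan and dose cannot be told apart there. Over 24839 genes limma called 0.0% in MCT 270 against control (0 genes, with 4613 at an unadjusted p under 0.05), 33.3% in MCT 330 against control and 21.9% in MCT 330 against MCT 270 (4.95% higher and 16.9% lower), and the median gene changed by -0.02, -0.25 and -0.23. With quantile normalization the 330 mg/kg median was -0.04, and 3144 genes were higher and 4267 lower than in controls, against 2348 and 5930 here.

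Dlk1, a Notch-like membrane protein of fetal liver and preadipocytes, was the only locus transcript called. It stood at -4.62 in the MCT 330 sample, against -3.79 and -3.52 in the MCT 270 samples and -3.47 and -3.62 in the control samples. The log2 fold change was -1.07 ± 0.22 against control (limma adjusted p = 0.0257) and -0.96 ± 0.22 against MCT 270 (limma adjusted p = 0.0431). A second Dlk1 probe gave -4.64, -4.75 and -4.79 on the MCT 330 arrays, against -4.53, -4.84 and -5.03 on the control arrays, where it was well above background on 1 of 3. With quantile normalization the change of Dlk1 against control was -0.62 (limma adjusted p = 0.0881), and with normexp before it -0.17 (limma adjusted p = 0.320). With no filter the limma adjusted p was 0.0672, without control replicate 1 the limma adjusted p was 0.0518, and without MCT 270 replicate 1 it was 0.0567. Against MCT 270, quantile normalization gave -0.52 (limma adjusted p = 0.154), normexp before it -0.14 (limma adjusted p = 0.452) and no filter an adjusted p of 0.104, and leaving out MCT 270 replicate 1 gave -1.10 (limma adjusted p = 0.135).

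Rtl1, the retrotransposon-derived placental gene opposite the proximal miRNAs, stood at -5.15 and -3.64 in the MCT 270 samples, against -7.34 and -5.92 in the control samples. It was well above background on all 3 MCT 270 arrays and on no control or MCT 330 array, so it was tested only through MCT 270. Its fitted fold change in MCT 270 over control livers was 4.71 (limma adjusted p = 0.207). Dio3, the deiodinase that inactivates thyroid hormone, stood at -4.37 and -5.11 in the MCT 270 samples, against -5.93 and -5.91 in the control samples. No control array was well above background for Dio3, and its fitted fold change in MCT 270 over control livers was 2.27 (limma adjusted p = 0.147). Neither passed the threshold in the 5-sample fit. Both fold changes are fitted against control values at background and give no firm size. They hold for this scaling and these samples only. The fitted log2 fold change of Rtl1 was 2.23 here, 1.82 with quantile normalization, 0.41 with normexp before it, 1.53 without control replicate 1 and 2.99 without MCT 270 replicate 1. That of Dio3 was 1.18 here, 0.96 with quantile normalization, 0.18 with normexp before it and 0.81 without MCT 270 replicate 1. Within the 4 arrays of these groups that were scanned together, Rtl1 had a log2 fold change of 2.16 (limma adjusted p = 0.216) and Dio3 1.05 (limma adjusted p = 0.184). With the 9 arrays taken as 9 samples both passed, Rtl1 at an adjusted p of 0.0104 and Dio3 at 0.0137 by limma. That fit counts arrays that differ by less than repeated spots as separate mice. It called 9551 genes in MCT 270 against control, in place of 0, so these p values support nothing beyond the values.

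Of the noncoding transcripts, Meg3 and Mirg were not called at either dose, and no probe was named for Rian. Meg3 was read by its brightest probe, and its other probes were well above background on no control or MCT 270 array. Meg3 stood at -3.85 and -3.89 in the MCT 270 samples, against -2.20 and -3.87 in the control samples, and the difference between the control samples exceeded that between groups (log2 fold change -0.84 ± 0.57, limma adjusted p = 0.480). In the MCT 330 sample Meg3 stood at -3.64 (log2 fold change -0.60 ± 0.69 against control, limma adjusted p = 0.534). Mirg, whose span holds the end of the distal group, stood at -3.89 and -4.55 in the MCT 270 samples and -3.79 in the MCT 330 sample, against -4.39 and -3.39 in the control samples. Its log2 fold changes were -0.33 ± 0.42 after 270 mg/kg (limma adjusted p = 0.707) and 0.10 ± 0.51 after 330 mg/kg (limma adjusted p = 0.897).

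**Figure D5:**
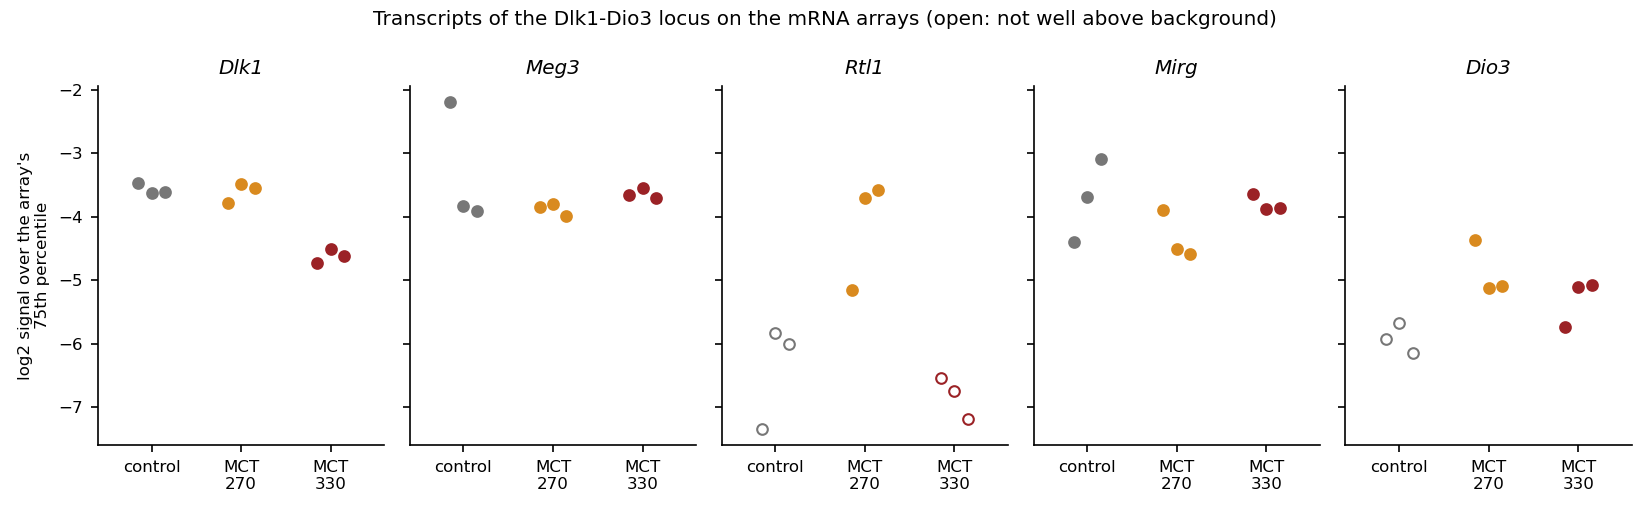
Log2 signal relative to the 75th percentile of each array for 5 transcripts of the locus on the 9 mRNA arrays; each point is 1 array, and open points were not well above background. Rtl1 is filled in MCT 270 livers only, Dlk1 is lowest in MCT 330 livers and 1 control array of Meg3 lies at -2.20, above the other 8.

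Genes that bear on imprinting and on miRNA maturation gave these counts in MCT 330 against control, beside 9.45% of all genes higher and 23.9% lower. Of 15 other imprinted genes 1 was higher and 5 lower. Peg10 (log2 fold change -2.07 ± 0.19, limma adjusted p = 0.00885) and Peg3 (-1.81 ± 0.19, limma adjusted p = 0.00885) had the smallest p, and the growth factor gene Igf2 was lower (-1.46 ± 0.27, limma adjusted p = 0.0201). Grb10, which restrains insulin signalling, was higher (limma adjusted p = 0.0168), at -5.07, -5.16 and -5.02 on the MCT 330 arrays against -7.45, -7.11 and -6.87 on the control arrays. It was well above background on no control array and was tested only through MCT 330. Its call supports nothing beyond these values, and no size is given. All MCT 330 counts and sizes of these lists, here and below, rest on 1 sample that was scanned apart. They hold for this scaling only, and no other scaling is given for these genes.

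Of 20 genes of miRNA maturation and turnover 0 were higher and 3 lower. They were Dicer1, which cuts hairpins into mature miRNAs (-1.02 ± 0.21, limma adjusted p = 0.0269), the exonuclease Xrn1 (-1.21 ± 0.20, limma adjusted p = 0.0165) and the silencing factor Tnrc6c (-1.02 ± 0.20, limma adjusted p = 0.0229). Of 12 regulators of imprints and of the locus 2 were higher and 2 lower, among them the DNA methyltransferases Dnmt1, which was higher (1.30 ± 0.24, limma adjusted p = 0.0198), and Dnmt3a, which was lower (-1.53 ± 0.25, limma adjusted p = 0.0156). Mef2d, whose family of factors drives the distal miRNAs in neurons, was higher (1.33 ± 0.22, limma adjusted p = 0.0158), and Jarid2 was lower (-0.69 ± 0.19, limma adjusted p = 0.0497). Of 9 genes that neighbour the locus 2 were higher and 2 lower. Begain, which flanks Dlk1, was lower (-1.53 ± 0.23, limma adjusted p = 0.0138), and so was the mitochondrial carrier gene Slc25a47 (-1.55 ± 0.32, limma adjusted p = 0.0262). The chaperone gene Hsp90aa1 was higher (1.50 ± 0.35, limma adjusted p = 0.0334), and so was Wars1, for a tRNA ligase, named Wars on the array (0.92 ± 0.25, limma adjusted p = 0.0486).

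Between the doses, limma called 0 higher and 5 lower of the 15 other imprinted genes in MCT 330 against MCT 270, 0 higher and 2 lower of the 20 maturation genes, 2 higher and 1 lower of the 12 regulators and 0 higher and 1 lower of the 9 neighbours, beside 4.95% higher and 16.9% lower of all genes. Without MCT 270 replicate 1 limma called 0 genes in this comparison in place of 5429, with 6237 at an unadjusted p under 0.05. In MCT 270 against control limma called none of the genes of these 4 lists, and 4 imprinted genes, 1 maturation gene, 2 regulators and 2 neighbours had an unadjusted p under 0.05.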

How the data were processed

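Livers of 9 mice were read on 9 miRNA arrays and 9 mRNA arrays. The deposited miRNA table gives, per the file headers, foreground intensity, foreground minus background intensity and a normalized ratio for Hy3-labelled RNA, with repeated spots already combined; its scanner software is not given in the sources used here. The authors' ratio is the second of these over a divisor of 234.75 to 281.75, set for each array as the median of the 368 probes that reached 30 on every array. Per the file headers, the authors took the mRNA intensities with Agilent Feature Extraction (version 11.0.1.1), which subtracted background and detrended them.

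miRNA intensities were background-corrected here with normexp (offset 50), put on the log2 scale and quantile normalized. Testing was limited to the 490 mouse probes that reached 30 over background on every array of 1 group or more. mRNA values were log2 processed signal minus the 75th percentile of each array, with outlier spots left out, and 24839 genes, each by its brightest probe, had 1 well above background on all arrays of a group; 27234 of 39429 probes were named through RefSeq accessions. mRNA arrays of a group whose robust SD of log2 differences lay under that of repeated spots (0.0907) were averaged, which left 5 samples. Between 64.0% and 80.9% of mRNA probes were well above background per array.

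Groups were compared in 1 fit with limma 3.58.1 (R 4.3.3; Python 3.11.15 for the rest), with Benjamini-Hochberg adjusted p under 0.05 over all probes or genes. The members and lists were chosen with earlier results of these data known. Members named are, per comparison, up to 10 called ones with the largest change (the 4 with the smallest p where fewer pass), those with both arms tested and those under 30 in 1 group and over it in another; up to 4 called genes are named per list. miR-665-3p, miR-541-3p and miR-341-3p were picked after their values were seen. Alternatives covered the background correction, normalization, filter, replicate block, averaged arrays and each array left out, and the fits were tested on simulated data.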

Additional observations from a re-analysis of the deposited data

Results flagged for a closer look

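The array also carries 56 probes for viral miRNAs, which stood outside every comparison above, and 14 of them reached 30 on all arrays of at least 1 group. A fit over mouse and viral probes together was added after seeing the data, and 2 viral probes were called higher and 3 lower in MCT 270 than in control livers. mcmv-miR-m108-1-3p, a miRNA of mouse cytomegalovirus, had 2168.5, 1041.5 and 1013.5 in MCT 270 livers and 191, 262 and 79.5 in MCT 330 livers, against 6, 70.5 and 115 in control livers. Its log2 fold change in MCT 270 against control was 3.70 ± 0.44 (limma adjusted p = 0.00101). mghv-miR-M1-3-3p, a miRNA of murine gammaherpesvirus, had 375, 180.5 and 158.5 in MCT 270 livers and 156, 98 and 72.5 in MCT 330 livers, against 37, 53 and 85.5 in control livers, with a log2 fold change of 1.29 ± 0.27 in MCT 270 against control (limma adjusted p = 0.0113). What these probes read was not tested. Groups of 3 arrays were too small to test single arrays as outliers.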

How the results depend on the processing

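No named member or locus transcript that was called changed direction under any alternative. Counts below are of calls over all mouse probes, then members, for MCT 270 against control (131 and 11 as reported), MCT 330 against control (26 and 3) and MCT 330 against MCT 270 (30 and 5). The authors' ratio gave 18 members in the first, 5 members in the second, and 70 probes and 8 members in the third. Median scaling gave 54 probes and no background correction 56 in the third. An offset of 16 gave 40 and 5 in the second, and 69 and 9 in the third. Testing fewer probes, those at 30 on all 9 arrays, gave 86 and 5, then 13 probes, then 16 and 2. Averaging replicates 2 and 3 gave 26 and 1, 12 and 0, and 0 and 0. With 5 samples all counts were 0 (144, 55 and 58 probes at an unadjusted p under 0.05 by limma). Leaving out 1 array gave 28 to 143 probes and 3 to 13 members, then 12 to 76 and 0 to 8, then 2 to 57 and 0 to 6. With the replicate block the third comparison had 15 and 3, and miR-493-5p was not called in the second. Deviations of same-numbered miRNA arrays correlated by -0.38 to 0.54 over 9 pairs (-0.38 to 0.44 for other numbers), so the numbers were not taken to pair mice.

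For mRNA (0, 8278 and 5429 calls as reported), normexp with quantile normalization gave 500 in the first comparison. Counting 9 arrays as 9 samples gave 9551, 18098 and 16151, and the replicate block added to it 9316, 17954 and 15984. No filter gave 3639 in the second and 0 in the third. Leaving out 1 array gave 0 throughout, 4924 to 8421 and 0 to 7285, with 0 without MCT 270 replicate 1. The cause of these shifts was not tested, apart from fewer probes or samples where an alternative used fewer. Chosen after seeing the data, viral probes tested with the mouse ones left 11, 3 and 5 members called, and the 4 mRNA arrays of 1 scan gave 0 calls by limma (4677 at an unadjusted p under 0.05). Signals near 30 limit most members, and 57 of 90 were not tested.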
